A study of Homo sapiens with 32 samples.

Results

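The APOBEC3 genes encode 7 cytidine deaminases, APOBEC3A, APOBEC3B, APOBEC3C, APOBEC3D, APOBEC3F, APOBEC3G and APOBEC3H, which lie side by side on chromosome 22. They were taken by symbol from the 28278 symbols of the count tables, and by Ensembl gene from the 60199 genes of the knockdown table, and all 7 were found in both. The family was chosen by a readout of these data, the fall of APOBEC3C in STAG2 knockout (KO) cells. The values of that comparison are therefore given as a description with no test, and the other members and comparisons are set beside it.

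Members of this family turn cytosine into uracil in single-stranded DNA. They are known for the restriction of retroviruses and of mobile elements, and APOBEC3A and APOBEC3B are known as sources of C-to-T and C-to-G mutations in tumour genomes. APOBEC3A, APOBEC3C and APOBEC3H have a single deaminase domain, whereas APOBEC3B, APOBEC3D, APOBEC3F and APOBEC3G have a pair. Several members are induced by interferon, and NF-kappa-B factors are known to drive APOBEC3B.

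RNA was measured in 32 libraries of Ewing sarcoma lines. In A673, the controls were the parental line and a WT clone, with a doxycycline-inducible Cas9 in the AAVS1 locus and no edit of the genes studied. Every KO clone was derived from that WT clone, so all KO libraries also carry the Cas9, and each KO library is a clonal population. Experiment 1 had 2 WT clone libraries, 1 parental library and 2 STAG2 KO libraries, numbered 5 and 24. Experiment 2 had 2 WT clone libraries, 1 parental library and 3 clones each of STAG2 KO (numbered 2, 3 and 5), EZH2 KO and SUZ12 KO. Experiment 3 had 1 WT clone library, 1 parental library and 3 STAG1 KO libraries, numbered 1, 5 and 7. Experiment 4 had 3 libraries of mock transfected A673 cells (siC) and 3 of cells transfected with siRNA against STAG2 (siSTAG2). SK-N-MC, which has STAG2, was measured with its STAG2 KO derivative, and A4573, which the study describes as lacking STAG2, with a derivative in which STAG2 was restored by knock-in (KI). Each of these 4 isogenic cell populations carried the Cas9 and had 1 library. STAG2 and STAG1 are alternative subunits of cohesin, and EZH2 and SUZ12 are subunits of Polycomb repressive complex 2 (PRC2). Nothing in the labels says that replicates of a control came from separate cultures, and their spread may be technical. The numbers of the STAG2 KO libraries of experiment 1 and of the STAG1 KO libraries are those of the deposited columns, and these libraries were tied to their genotype but not to a single labelled clone.

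Totals were 15734628 to 20663679 counts in the 22 libraries of experiments 1 to 3, 29322507 to 32261248 in the 4 isogenic libraries and 6852340 to 8184632 reads in experiment 4. STAG2 stood at 256 to 361 CPM, reads scaled to a common library size, in the 6 controls of experiments 1 and 2 and at 42.4 to 184 CPM in the 5 STAG2 KO libraries. EZH2 fell by 1.98 ± 0.203 on the log2 scale in EZH2 KO cells (SE, edgeR adjusted p = 0.000137) and SUZ12 by 1.90 ± 0.233 in SUZ12 KO cells (edgeR adjusted p = 0.000299). STAG1 did not pass the test in STAG1 KO cells. The library labelled STAG1 KO 1 held 61.5 CPM of STAG1, within the 57.8 to 69.6 CPM of the controls, while the other STAG1 KO libraries held 15.1 and 33.2 CPM. Of 10 genes known to mark Ewing sarcoma, 9 had a median of at least 5 CPM in A673 and in SK-N-MC and 8 in A4573. The tenth, CD99, is listed at 0 in every library of the 26 counted by symbol, and it was therefore not measured. The summed level of 8 immune cell markers was 0.174 to 2.86 CPM in the 22 A673 libraries.

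The cluster spans 151327 bases, from position 38952741 to 39104067 of chromosome 22 (GRCh38, GENCODE 44), and all 7 genes lie on the plus strand. Their order is the alphabetical one, from APOBEC3A (38952741 to 38963184) through APOBEC3B (38982347 to 38992804), APOBEC3C (39014257 to 39020352), APOBEC3D (39021113 to 39033277), APOBEC3F (39040604 to 39055972) and APOBEC3G (39077067 to 39087743) to APOBEC3H (39097224 to 39104067). Reads of these genes are not equally easy to assign, because the members arose by duplication. In the annotated transcripts, no stretch of 86 bases, the read length, of APOBEC3C or APOBEC3H was identical to a stretch of another member. The share was 18.3% for APOBEC3B, 14.6% for APOBEC3A, 10.3% for APOBEC3D, 8.25% for APOBEC3G and 6.89% for APOBEC3F. With the 2 mismatches the authors allowed, it was 4.38% for APOBEC3C, 33.2% for APOBEC3B and 19.6% for APOBEC3D. Values of all members but APOBEC3H may therefore hold reads of a near copy, least for APOBEC3C and chiefly within the pair APOBEC3A and APOBEC3B and among APOBEC3D, APOBEC3F and APOBEC3G. By the protocol in the labels, the libraries do not keep strand, and the antisense gene APOBEC3B-AS1 overlaps the end of APOBEC3B. The annotation also has a read-through gene over APOBEC3C and APOBEC3D, which the knockdown table does not list.

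APOBEC3C was the main APOBEC3 transcript in the control and WT libraries of these lines. Per kilobase of exon, taken over the union of annotated exons, it made up on average 66.3% of the family's level in the 8 A673 controls (59.1% to 80.6%), 73.0% in SK-N-MC WT and 82.1% in A4573 WT cells. In STAG2 KO library 24 of experiment 1, APOBEC3C made up 23.2% and APOBEC3B 73.7%. APOBEC3B was the next in A673 controls, with 18.4% on average (8.41% to 35.4%), followed by APOBEC3D (6.73%), APOBEC3F (5.19%) and APOBEC3G (3.10%). The shares of APOBEC3D, APOBEC3F and APOBEC3G overlapped among these 8 libraries, and so did those of APOBEC3B and APOBEC3D. Their order rests on the lengths used. Per kilobase of the longest coding transcript, a length chosen after seeing the data, APOBEC3C made up 61.0% and APOBEC3B 17.7%, followed by APOBEC3G (9.45%), APOBEC3D (6.07%) and APOBEC3F (5.38%). In SK-N-MC WT and A4573 WT cells, APOBEC3B made up only 1.67% each, and APOBEC3G (11.5% and 5.45%) and APOBEC3F (8.53% and 8.01%) stood above it, with either length. APOBEC3C made up 56.3% and 71.5% and APOBEC3G 30.4% and 16.3% per kilobase of the longest coding transcript. APOBEC3A had at most 8 counts and APOBEC3H at most 5 counts in any of the 26 libraries counted by symbol. Neither passed the filter on low counts in a fit over A673 libraries, and neither had a read in experiment 4.

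In the comparison that chose the family, APOBEC3C was lower in all 5 STAG2 KO libraries than in all 6 STAG2-proficient ones. In experiment 1, the controls held 31.8, 34.1 and 32.7 CPM and STAG2 KO libraries 5 and 24 held 3.13 and 5.43 CPM. In experiment 2, the controls held 17.1, 18.9 and 19.0 CPM and STAG2 KO clones 2, 3 and 5 held 8.72, 9.03 and 7.98 CPM. The groups did not overlap in either experiment. The difference was larger in experiment 1, where the controls were higher and the KO libraries lower than in experiment 2. The log2 fold change was -1.82 ± 0.346 (SE) over both experiments, -2.94 in experiment 1 alone and -1.04 in experiment 2 alone. Of the 13574 genes tested, 5.76% were called lower, from which nothing is read here because APOBEC3C was selected on this contrast. In RNA of whole cultures, fewer cells with a transcript and less of it per cell cannot be told apart.

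The other members did not share one pattern in STAG2 KO cells. In experiment 1, APOBEC3D, APOBEC3F and APOBEC3G were lower in both KO libraries than in every control. APOBEC3F held 6.89, 6.20 and 7.04 CPM in the controls against 1.27 and 0.849 CPM, and APOBEC3G held 3.27, 4.03 and 3.39 CPM against 0.695 and 0.283 CPM. APOBEC3D held 3.09, 3.76 and 4.85 CPM in the controls against 0.695 and 0.170 CPM. In experiment 2, all 3 were already low in the controls, at 0.385 to 0.798 CPM for APOBEC3D, 0.385 to 1.08 CPM for APOBEC3F and 0.114 to 0.558 CPM for APOBEC3G. There, KO clones 2 and 3 held at most 0.389 CPM of any of them, whereas KO clone 5 held 2.36, 4.83 and 5.78 CPM of APOBEC3D, APOBEC3F and APOBEC3G, above every control of that experiment. In the same clone APOBEC3C was the lowest of the experiment.

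APOBEC3B varied widely between STAG2 KO libraries. It stood at 4.44, 4.08 and 5.32 CPM in the controls of experiment 1 and at 0.695 CPM in KO library 5, but at 12.4 CPM in KO library 24. The latter library also held the most STAG2 RNA of the 5 (184 CPM). In experiment 2 the controls held 7.30, 7.38 and 2.06 CPM and the KO clones 3.89, 0.845 and 1.63 CPM. Over both experiments the log2 fold change was -0.47 ± 0.689 for APOBEC3B, -0.85 ± 0.928 for APOBEC3D, -0.33 ± 1.08 for APOBEC3F and 0.55 ± 1.61 for APOBEC3G, so that for these 4 the error was close to or above the change.

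**Figure D1:**
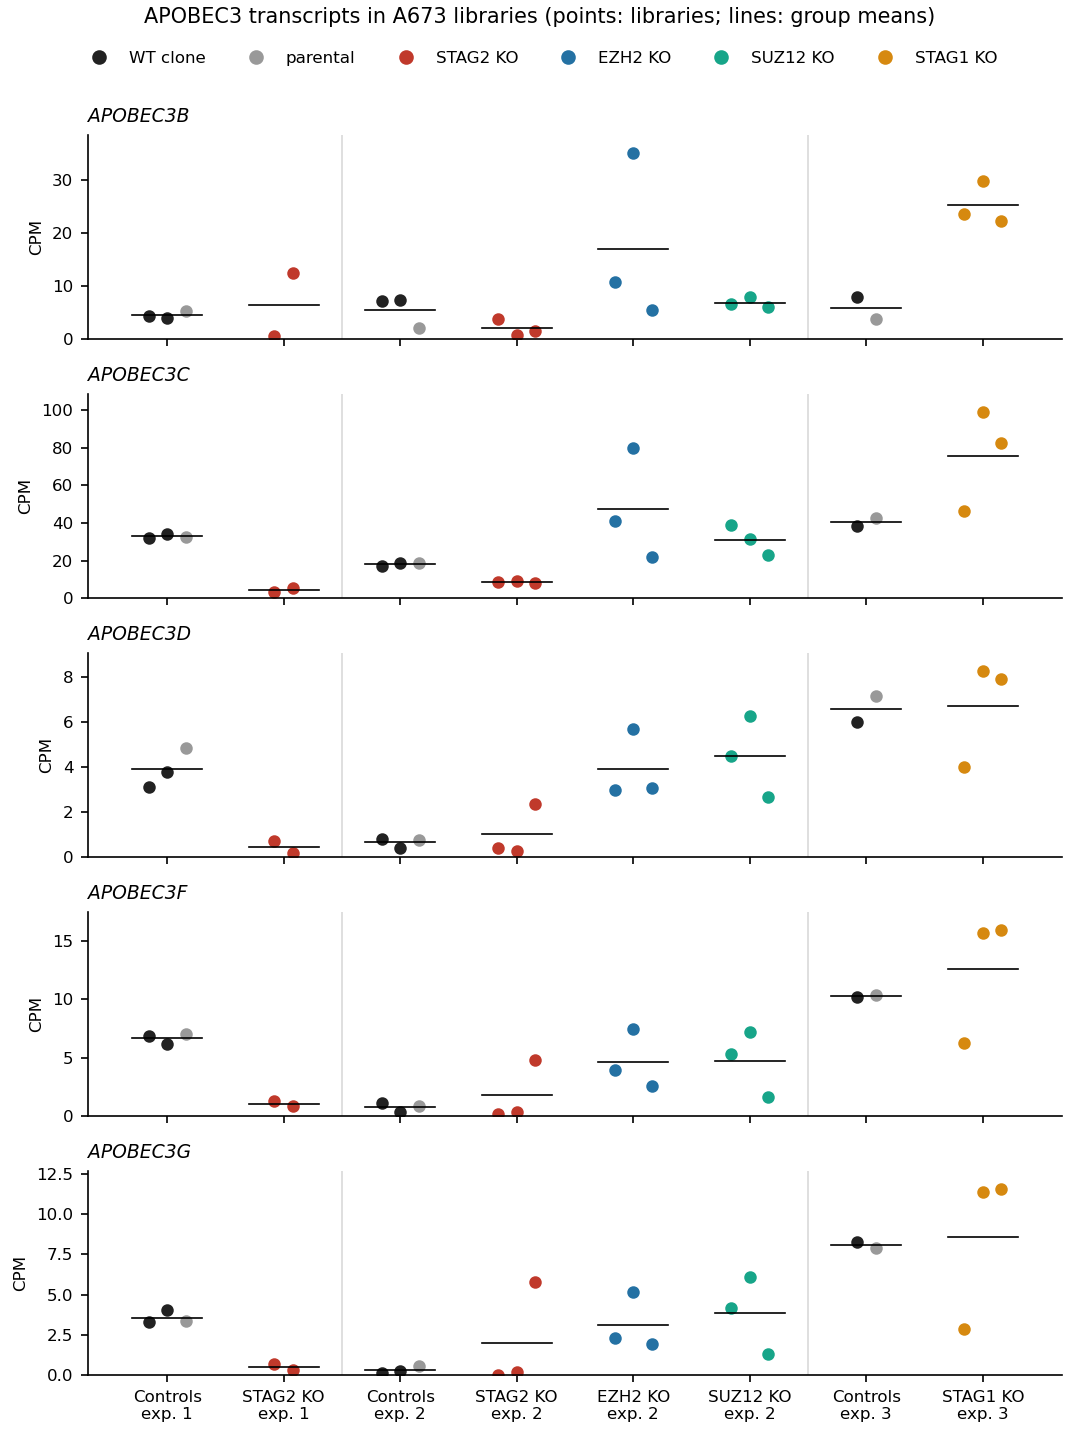
Level of 5 APOBEC3 genes (CPM, linear axes that start at 0) in the 22 A673 libraries of experiments 1 to 3. Points are libraries and lines group means. APOBEC3C lies below its controls in all 5 STAG2 KO libraries, APOBEC3B above them in the 3 STAG1 KO libraries (22.3 to 29.9 CPM against 3.91 and 8.0 CPM), and APOBEC3D, APOBEC3F and APOBEC3G are near 0 in the controls of experiment 2 but not in those of experiments 1 and 3.

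Transient loss of STAG2 was measured in experiment 4, whose libraries took no part in choosing the family. STAG2 fell by 2.72 ± 0.0854 on the log2 scale (SE, limma adjusted p = 4.01e-18). APOBEC3C held 390, 412 and 389 normalized reads in siC cells and 369, 332 and 307 in siSTAG2 cells, and the groups did not overlap. The decrease was small, with a log2 fold change of -0.24 ± 0.0842 (limma adjusted p = 0.0416). APOBEC3F, a deaminase that restricts retroviruses, held 14.3, 32.5 and 32.3 normalized reads in siC cells and 8.88, 16.7 and 12.6 in siSTAG2 cells. Its ranges overlapped, because siC library 1 was low, and its log2 fold change was -0.95 ± 0.335 (limma adjusted p = 0.0452).

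Among the 12060 genes tested, 11.0% were called lower in siSTAG2 cells, and APOBEC3C and APOBEC3F, the members called, were both close to the threshold. The call of APOBEC3C was lost without any of siC libraries 1, 2 and 3 and siSTAG2 libraries 2 and 3 (adjusted p = 0.0702 to 0.212), and that of APOBEC3F without siC library 2 or 3 or siSTAG2 library 1 or 3 (adjusted p = 0.0879 to 0.204). APOBEC3D held 39.1, 25.6 and 40.6 normalized reads in siC cells against 22.2, 28.7 and 22.2 in siSTAG2 cells, with a log2 fold change of -0.49 ± 0.247 that did not pass the test (limma adjusted p = 0.172). APOBEC3G had 2 to 8 reads per library and was not tested. APOBEC3B had at most 2 reads in siC cells and none in siSTAG2 cells, which allows up to 3 reads per library. In the controls of experiments 1 to 3 it had 37 to 147 counts at a depth of 16358857 to 20366240 counts. The knockdown table was made over other gene identifiers than the count tables, and its levels are only set beside theirs.

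The isogenic pairs had 1 library per arm, so the differences have no replicate check, and the 95% intervals cover counting error only. In SK-N-MC, the 5 members compared, those whose summed count reached 10, were all lower in the STAG2 KO library by more than 2-fold. APOBEC3C had 733 counts in WT and 179 in STAG2 KO cells, a log2 ratio of -1.90 (-2.16 to -1.68). APOBEC3G, the best known restriction factor of the family, had 234 and 56 counts (-1.91, -2.39 to -1.52). APOBEC3F had 169 and 50 counts (-1.60, -2.12 to -1.17) and APOBEC3D 39 and 6 counts (-2.26, -4.11 to -1.33). For APOBEC3B, with 12 and 4 counts, the interval reached above 0 (-1.13, -3.55 to 0.26). Of the 16413 genes compared, 11.3% were lower by at least 2-fold. STAG2 RNA itself had 9648 counts in WT and 5626 in STAG2 KO cells (-0.66, -0.71 to -0.61), a change of under 2-fold. In this pair the summed immune markers stood at 4.75 CPM in WT and 57.5 CPM in STAG2 KO cells, of which PTPRC made up 2.89 and 56.6 CPM, and their part in the APOBEC3 values was not tested.

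In A4573, the members did not move together. APOBEC3C was higher in the WT library, which the study describes as lacking STAG2, than in the STAG2 KI library, with 1371 and 1020 counts and a log2 ratio of 0.48 (0.36 to 0.60). The other 4 deaminases with a sizeable level were lower in WT than in KI cells, as they were without STAG2 in SK-N-MC. APOBEC3G had 185 and 424 counts (-1.13, -1.40 to -0.89), APOBEC3F 264 and 387 (-0.50, -0.73 to -0.27), APOBEC3D 35 and 73 (-0.97, -1.63 to -0.41) and APOBEC3B 20 and 49 (-1.16, -2.07 to -0.46). APOBEC3B and APOBEC3G were past 2-fold, as were 14.2% of the 16124 genes compared in that direction. APOBEC3A, with 8 and 2 counts, had a log2 ratio of 1.36 whose interval included 0 (-0.27 to 5.33). STAG2 RNA itself had 1028 counts in WT and 2730 in KI cells. With a single library in each arm, the change of STAG2 cannot be told apart from differences between the cultures or clones.

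**Figure D2:**
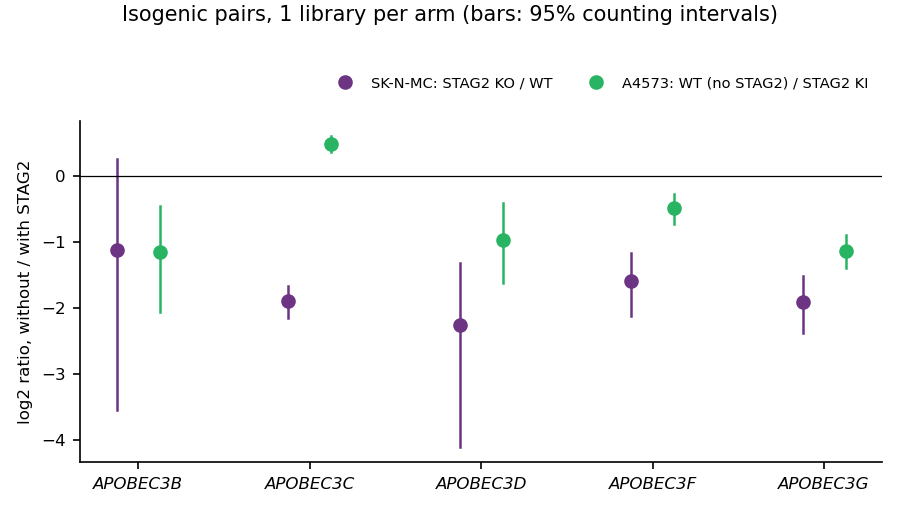
Log2 ratio of 5 APOBEC3 genes between the library without and the library with STAG2 in SK-N-MC and A4573 (points), with 95% counting intervals (bars) and 1 library per arm. APOBEC3C lies at -1.90 in SK-N-MC and at 0.48 in A4573, while the ratios of the other genes are below 0 in both lines.

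STAG1 is the other form of the cohesin subunit, and in the libraries labelled STAG1 KO, APOBEC3B was higher than in the controls. It held 8.0 CPM in the WT clone and 3.91 CPM in the parental library, and 23.6, 29.9 and 22.3 CPM in STAG1 KO libraries 1, 5 and 7, the first of which had STAG1 at the level of the controls. The groups did not overlap, and the log2 fold change was 2.08 ± 0.339 (SE, edgeR adjusted p = 0.0323). Of the 14373 genes tested, 2.77% were called higher. The call rests on few libraries, and the adjusted p ranged from 0.0329 to 0.236 when each library in turn was left out, with the call kept only without STAG1 KO library 1 (2.14). Without the parental library the log2 fold change was 1.65 and without the WT clone 2.70.

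APOBEC3C stood at 38.5 and 42.7 CPM in the controls and at 46.1, 98.7 and 82.3 CPM in STAG1 KO libraries 1, 5 and 7, above both controls in all 3. Its log2 fold change of 0.90 ± 0.309 did not pass the test (edgeR adjusted p = 0.142). Without the library labelled STAG1 KO 1, whose STAG1 level was that of the controls, it was 1.17 ± 0.119 (edgeR adjusted p = 0.0166). APOBEC3D, APOBEC3F and APOBEC3G split in the same way among the libraries. Library 1 held 4.0, 6.29 and 2.86 CPM of them, below both controls (5.99 to 7.13, 10.2 to 10.4 and 7.91 to 8.28 CPM), while libraries 5 and 7 held 8.23 and 7.90, 15.7 and 15.9, and 11.4 and 11.6 CPM, above both. Over all 3 libraries their log2 fold changes were 0.03 ± 0.346, 0.30 ± 0.403 and 0.09 ± 0.559, and none passed the test.

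APOBEC3D held more in the libraries of both kinds of PRC2 KO cells than in their controls. It held 0.385 to 0.798 CPM in the 3 controls of experiment 2, 2.99, 5.68 and 3.05 CPM in EZH2 KO clones 1, 2 and 3 and 4.49, 6.26 and 2.65 CPM in SUZ12 KO clones 1, 2 and 3. The log2 fold change was 2.65 ± 0.747 in EZH2 KO (SE, edgeR adjusted p = 0.0335) and 2.82 ± 0.750 in SUZ12 KO cells (edgeR adjusted p = 0.0203). It exceeded the count minimum of the filter in 2 of the 3 controls, and it was also called without that filter (edgeR adjusted p = 0.0279 and 0.0153). APOBEC3C rose in EZH2 KO cells, from 17.1 to 19.0 CPM in the controls to 41.0, 80.0 and 21.8 CPM in clones 1, 2 and 3, with a log2 fold change of 1.47 ± 0.370 (edgeR adjusted p = 0.0203). In SUZ12 KO clones it held 38.9, 31.3 and 23.2 CPM, also above every control, and its log2 fold change of 0.84 ± 0.366 did not pass the test (edgeR adjusted p = 0.131). The call of APOBEC3D was lost without any of the 6 EZH2 KO and control libraries (adjusted p = 0.0516 to 0.131) and, in SUZ12 KO cells, without clone 2 or any control (0.0572 to 0.0882). The call of APOBEC3C was lost without EZH2 KO clone 2, when the log2 fold change was 0.85, or any control (0.0649 to 0.0863). Among the 15130 genes tested, 12% were called higher in EZH2 KO and 14.7% in SUZ12 KO cells. These comparisons share the experiment 2 controls with the STAG2 KO comparison that chose the family, and share them with each other. The libraries of experiment 2 also differed in their TMM scaling factor. It was 0.861, 0.871 and 0.889 in the controls and 0.892 and 0.926 in STAG2 KO clones 2 and 3. In the EZH2 and SUZ12 KO clones it was 1 to 1.09, and in STAG2 KO clone 5 it was 1.12. Whether this split has a part in the APOBEC3 values was not tested, and it cannot be told apart from the PRC2 KO.

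APOBEC3F and APOBEC3G had fold changes of the same size or larger, which did not pass the test. APOBEC3F held 3.90, 7.48 and 2.58 CPM in EZH2 KO and 5.32, 7.17 and 1.62 CPM in SUZ12 KO clones, all above the 0.385 to 1.08 CPM of the controls. Its log2 fold changes were 2.64 ± 1.04 and 2.63 ± 1.04 (edgeR adjusted p = 0.111 and 0.0960). APOBEC3G held 2.31, 5.19 and 1.91 CPM in EZH2 KO and 4.20, 6.08 and 1.30 CPM in SUZ12 KO clones, all above the 0.114 to 0.558 CPM of the controls. Its log2 fold changes were 3.4 ± 1.41 and 3.67 ± 1.42 (edgeR adjusted p = 0.129 and 0.0893), from 2 to 10 counts per control library. The fit took its spread from all 12 libraries of experiment 2, STAG2 KO clone 5 with its 5.78 CPM of APOBEC3G included. APOBEC3D, APOBEC3F and APOBEC3G exceeded the count minimum of the filter in only 2, 2 and 1 of the 3 controls and entered the fit through KO libraries, so no count over the members tested is read. In fits without the STAG2 KO clones and without the other PRC2 KO, APOBEC3C, APOBEC3D, APOBEC3F and APOBEC3G passed the test in both kinds of KO cells. The edgeR adjusted p was 0.00880 and 0.00954 for APOBEC3F and 0.00616 and 0.00403 for APOBEC3G in EZH2 KO and SUZ12 KO. DESeq2 also called APOBEC3F and APOBEC3G in both, whereas edgeR without the filter called neither of them (adjusted p = 0.0740 to 0.119). APOBEC3D, APOBEC3F and APOBEC3G entered the smaller fits and DESeq2, too, through the KO libraries, where they were high. Their calls there are therefore a description and are not read as support for a rise.

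APOBEC3B overlapped its controls in both kinds of PRC2 KO cells. It held 10.7, 35.0 and 5.49 CPM in EZH2 KO clones 1, 2 and 3 and 6.74, 7.89 and 6.0 CPM in SUZ12 KO clones, against 2.06 to 7.38 CPM in the controls. The log2 fold changes of 1.71 ± 0.708 and 0.38 ± 0.696 did not pass the test. EZH2 KO clone 2 held the most of APOBEC3B, APOBEC3C, APOBEC3D, APOBEC3F and APOBEC3G among the EZH2 KO clones, and EZH2 KO clone 3 the least of all but APOBEC3D. A direct test of EZH2 KO against SUZ12 KO called none of the members with edgeR, DESeq2 or at an unadjusted p under 0.05 (0 of 5), and 0.00661% of the genes tested, a single gene, EZH2. The log2 difference was 1.34 ± 0.698 for APOBEC3B and 0.64 ± 0.362 for APOBEC3C, higher in EZH2 KO (edgeR adjusted p = 0.999 for both).

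**Figure D3:**
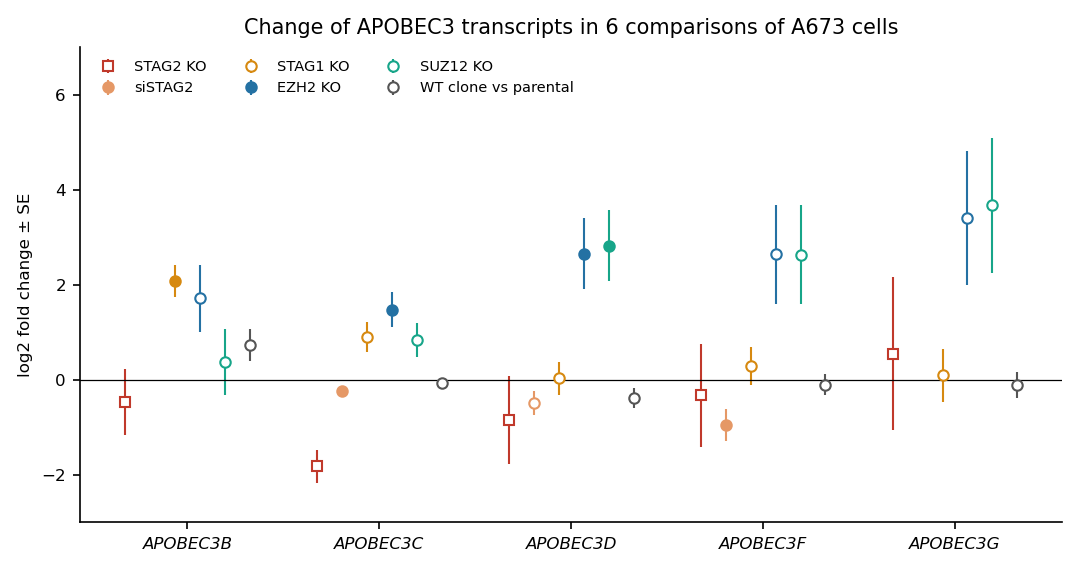
Log2 fold change ± SE of 5 APOBEC3 genes in 6 comparisons of A673 cells. Filled circles passed the test at an adjusted p under 0.05, open circles did not, and STAG2 KO is drawn as open squares because it chose the family and carries no test. APOBEC3B and APOBEC3G had too few reads for the siSTAG2 test. APOBEC3B is filled in STAG1 KO, APOBEC3D in both PRC2 KO comparisons and APOBEC3C in EZH2 KO and siSTAG2 and APOBEC3F in siSTAG2.

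The controls themselves differed between experiments in APOBEC3C, APOBEC3D, APOBEC3F and APOBEC3G, in a comparison made after these values had been seen. APOBEC3G stood at 3.27 to 4.03 CPM in the controls of experiment 1, at 0.114 to 0.558 CPM in those of experiment 2 and at 7.91 and 8.28 CPM in those of experiment 3. APOBEC3F stood at 6.20 to 7.04, 0.385 to 1.08 and 10.2 to 10.4 CPM, and APOBEC3D at 3.09 to 4.85, 0.385 to 0.798 and 5.99 to 7.13 CPM. None of these ranges overlapped, for cells of the same genotypes. Relative to experiment 2, the log2 difference was 3.49 ± 0.382 for APOBEC3G, 3.07 ± 0.282 for APOBEC3F, 2.55 ± 0.278 for APOBEC3D and 0.85 ± 0.0998 for APOBEC3C in experiment 1 (edgeR adjusted p = 0.000107, 5.45e-05, 0.000106 and 0.000154). In experiment 3 it was 4.65 ± 0.381, 3.66 ± 0.294, 3.24 ± 0.288 and 1.14 ± 0.110. APOBEC3B did not pass the test, at -0.11 ± 0.365 and 0.25 ± 0.397, but without the parental library of experiment 1 it was lower in experiment 1 than in experiment 2 (-0.71 ± 0.208, edgeR adjusted p = 0.0124). Such differences were common, since 28.2% of 14521 genes were called higher in experiment 1 than in experiment 2 and 32.6% in experiment 3, and experiment cannot be told apart from whatever else differed between the experiments. The adjusted p-values here rest on the spread of libraries within an experiment and do not measure the spread between experiments. The controls of experiments 1 and 2 also took part in the comparison that chose the family.

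The levels of APOBEC3D, APOBEC3F and APOBEC3G in the PRC2 KO clones lay within or below those of controls from the other experiments. APOBEC3G reached 1.30 to 6.08 CPM in the 6 PRC2 KO clones, against 3.27 to 8.28 CPM in the 5 controls of experiments 1 and 3. APOBEC3D reached 2.65 to 6.26 CPM against 3.09 to 7.13 CPM. The WT clone and the parental line, compared within experiments, gave no call in the 5 members tested, by edgeR, by DESeq2 or at an unadjusted p under 0.05 (0 each), while 2.72% of all genes were called. APOBEC3B was the nearest, at 0.73 ± 0.334 on the log2 scale (edgeR adjusted p = 0.319). Without the parental library of experiment 1, the difference was 1.42 ± 0.211, higher in the WT clone (edgeR adjusted p = 0.00452).

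Across the 22 libraries of experiments 1 to 3, APOBEC3D, APOBEC3F and APOBEC3G varied together. With each gene's log2 CPM centred on the mean of its experiment, Pearson's r was 0.960 for APOBEC3F and APOBEC3G, 0.948 for APOBEC3D and APOBEC3F and 0.914 for APOBEC3D and APOBEC3G. These genes share reads, as given above, and the libraries share clones and depth, so the values are a description. APOBEC3C was less closely tied to them (0.764, 0.723 and 0.633 for APOBEC3D, APOBEC3F and APOBEC3G), and APOBEC3B least (0.327, 0.360 and 0.239), with 0.651 between APOBEC3B and APOBEC3C. The genes whose levels were most like those of APOBEC3C, among 11051 genes, were ANGPTL2 (r = 0.925), PGAP3 (0.920), RNF141 (0.913), XPNPEP2 (0.910) and PHLDA3 (0.906). For APOBEC3B, they were S100A13 (0.845), S100A11 (0.839), SHISAL1 (0.834), NT5DC1 (0.832) and ZBTB42 (0.800). The 22 libraries include those of the STAG2 KO comparison that chose the family, and genotype was not removed, so these rankings are a description.

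**Figure D4:**
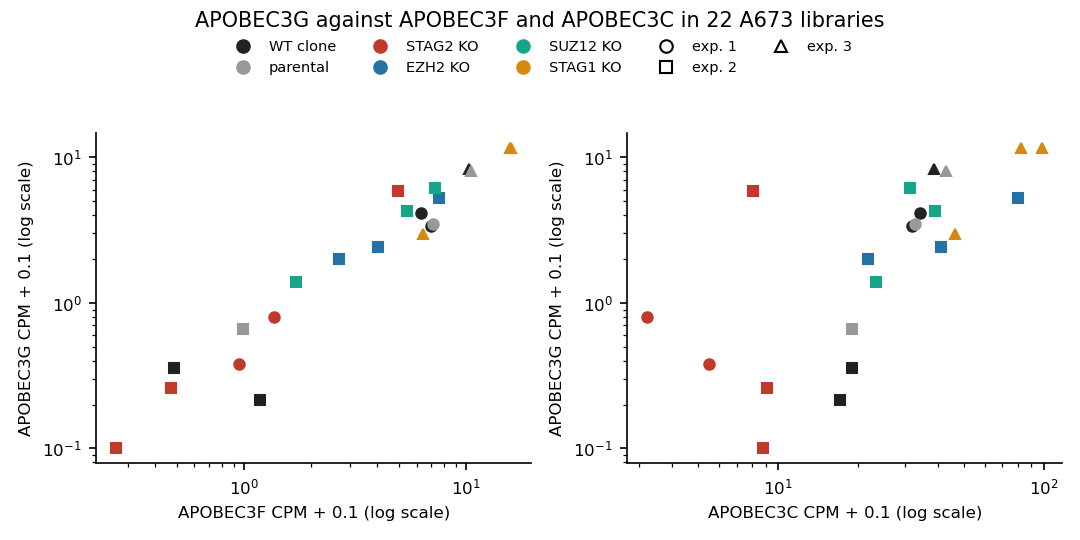
APOBEC3G against APOBEC3F (left) and APOBEC3C (right) in the 22 A673 libraries (CPM + 0.1, log axes), with colour for genotype and symbol for experiment. APOBEC3G rises with APOBEC3F in libraries of all genotypes, whereas STAG2 KO clone 5 of experiment 2 has 5.78 CPM of APOBEC3G at 7.98 CPM of APOBEC3C.

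Genes beside the cluster were followed to see how far the changes reached. Of 10 neighbours, SUN2, DNAL4, NPTXR and CBX6 lie before APOBEC3A and CBX7, PDGFB, RPL3, SYNGR1, TAB1 and MGAT3 after APOBEC3H. In siSTAG2 cells, 4 of the 9 neighbours tested were called lower and none higher, against 11.0% of all genes tested called lower. NPTXR, a neuronal pentraxin receptor, fell by 1.23 ± 0.0677 on the log2 scale (limma adjusted p = 2.84e-13), CBX7, a Polycomb subunit, by 0.89 ± 0.261 (0.0158), SUN2, a nuclear envelope protein, by 0.42 ± 0.0729 (0.000117) and DNAL4, a dynein light chain, by 0.39 ± 0.0729 (0.000307). The median of the 9 was -0.39, against 0.01 for all genes tested. In STAG2 KO cells, given as a description, the log2 fold change was -1.17 ± 0.156 for NPTXR, -2.18 ± 0.638 for MGAT3, -0.58 ± 0.0851 for SUN2 and -0.69 ± 0.160 for DNAL4, with a median of -0.58 over 9 neighbours and 0.04 over all genes.

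In SK-N-MC, NPTXR was the only neighbour past 2-fold, with 4555 counts in WT and 1951 in STAG2 KO cells (log2 ratio -1.10, -1.18 to -1.03). In A4573 no neighbour was past 2-fold, and NPTXR had 2215 counts in WT and 1888 in KI cells. In STAG1 KO cells edgeR called none of 9 neighbours tested (median -0.21), with 2 at an unadjusted p under 0.05 and 2 called by DESeq2, MGAT3 and SYNGR1. In EZH2 and SUZ12 KO cells DNAL4 alone was called, and it was lower (-0.63 ± 0.192 and -0.84 ± 0.193, edgeR adjusted p = 0.0443 and 0.00981). Over all 15130 genes tested, 558 and 888 were called lower in these cells, and 757 of 14373 were called in STAG1 KO cells. The rise of APOBEC3D in PRC2 KO cells was not accompanied by a called rise of a neighbour. CBX7, the first listed gene after APOBEC3H, held 1.22 to 2.17 CPM in the controls of experiment 2. It held 2.41 to 4.48 CPM in EZH2 KO clones, above every control, and 1.46 to 5.81 CPM in SUZ12 KO clones, which overlapped the controls. Whether members and neighbours differed was not tested.

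**Figure D5:**
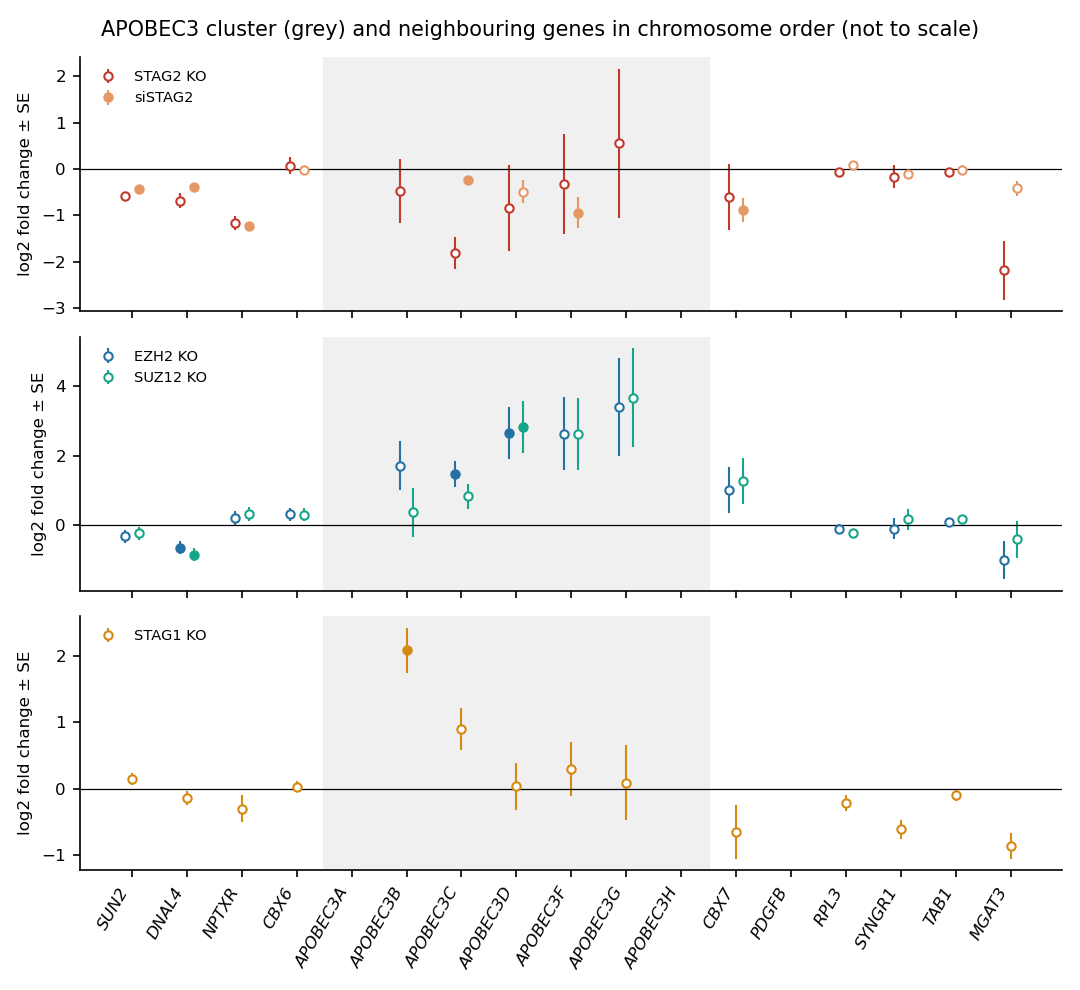
Log2 fold change ± SE of the APOBEC3 genes (grey area) and 10 neighbours in chromosome order, not to scale, for STAG2 KO and siSTAG2 (top), EZH2 and SUZ12 KO (middle) and STAG1 KO (bottom). Filled points passed the test, STAG2 KO carries none and is drawn open, and genes without a point were not tested. NPTXR lies at -1.17 in STAG2 KO and -1.23 in siSTAG2, and DNAL4 is the one neighbour called in PRC2 KO.

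Transcription factors known to drive APOBEC3 genes were followed as a list. In the libraries labelled STAG1 KO, the NF-kappa-B genes NFKB1, NFKB2, RELA and RELB did not pass the test with edgeR, whereas DESeq2 called NFKB2. NFKB1 was lower in EZH2 KO (-0.69 ± 0.180, edgeR adjusted p = 0.0238) and SUZ12 KO cells (-1.65 ± 0.185, edgeR adjusted p = 0.000185). It was 1 of 12 called in each, and 558 and 888 of all 15130 genes tested were called lower. In siSTAG2 cells 3 of 11 were higher, NFKB1 (0.44 ± 0.108), RELB (0.59 ± 0.159) and E2F4 (0.27 ± 0.0881), and IRF1, an interferon response factor, was lower (-0.97 ± 0.280, limma adjusted p = 0.0140). Over all 12060 genes tested there, 1151 passed the test upward and 1325 downward. In STAG2 KO cells IRF1 had a log2 fold change of -1.16 ± 0.336. In A4573, MYBL2 was past 2-fold higher in WT than in KI cells (log2 ratio 1.37). IRF9 and RELB were past 2-fold lower in WT (-2.06 and -1.52), whereas none of 12 was past 2-fold in SK-N-MC. Over all genes compared in A4573, 1238 of 16124 were at least 2-fold higher and 2287 lower. In SK-N-MC, 3536 of 16413 differed by at least 2-fold.

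A list of 13 other genes that restrict retroviruses or retroelements was followed too. BST2, which tethers virions, and SERINC5, which lowers the infectivity of virions, were lower in siSTAG2 cells (-1.23 ± 0.444 and -0.71 ± 0.211, limma adjusted p = 0.0498 and 0.0162), as 2 of 11 tested. Over all genes tested there, 11.0% were called lower. SERINC5 was higher in SUZ12 KO cells (1.26 ± 0.276, edgeR adjusted p = 0.00760), where 14.7% of all genes tested were called higher. EdgeR called 0 of 11 in EZH2 KO cells, with 2 at an unadjusted p under 0.05 and 2 called by DESeq2 (ADAR and SERINC5). In STAG1 KO cells it called 0 of 11, with 1 and 1 (SERINC5). Over all genes tested, edgeR called 2377 of 15130 in EZH2 KO and 757 of 14373 in STAG1 KO cells. The antiviral gene ZC3HAV1 had a log2 fold change of -2.71 ± 0.570 in STAG2 KO cells, and it was also lower in the WT clone than in the parental line (-1.0 ± 0.136, edgeR adjusted p = 0.00643), as was ADAR (-0.43 ± 0.0674, edgeR adjusted p = 0.0128). BST2 moved in opposite directions in the isogenic pairs, with 284 counts in WT and 956 in STAG2 KO SK-N-MC cells, and 6 in WT and 607 in KI A4573 cells.

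Of 11 genes that repair or bypass uracil and abasic sites, edgeR called 0 in STAG1, EZH2 or SUZ12 KO cells, with 1, 2 and 2 at an unadjusted p under 0.05, while DESeq2 called REV3L in STAG1 KO and POLB in SUZ12 KO cells. In siSTAG2 cells TDG, a thymine and uracil glycosylase, was higher (0.35 ± 0.0752, limma adjusted p = 0.00139), and UNG, the main uracil glycosylase (-0.26 ± 0.0897, 0.0368), XRCC1 (-0.36 ± 0.0848, 0.00274) and REV3L (-0.30 ± 0.108, 0.0464) were lower. Over all 12060 genes tested in siSTAG2 cells, 1151 were called higher and 1325 lower. In STAG1, EZH2 and SUZ12 KO cells, edgeR called 757 of 14373, 2377 of 15130 and 3112 of 15130 genes. In STAG2 KO cells XRCC1 had a log2 fold change of -0.55 ± 0.129 and POLB of 0.31 ± 0.0903. Of APOBEC1, APOBEC2, APOBEC4 and APOBEC3B-AS1, 0 passed the filter on low counts in any A673 comparison, and APOBEC2 had 57 and 61 counts in the WT and KI libraries of A4573.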

How the data were processed

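RNA-seq of A673, SK-N-MC and A4573 cells was used, with 22 libraries of A673 clones and controls, 6 of the knockdown and 4 of the isogenic pairs. Libraries were made by the authors with oligo-dT and template switching, without strand, and read from a single end over 86 nt. Alignment was to hg38 with at most 2 mismatches and 5 hits per read. The submitters' processing notes name SAMtools 0.1.16 and TopHat2 2.0.0, and with them Bowtie (version 0.12.7). The counting program and its annotation are not given in the sources used here. The deposited values of 4 tables are whole counts per gene symbol. The deposited table of the knockdown holds a signal, that is reads per Ensembl gene that the authors divided by 1 factor per library, and whole reads were recovered for 100% of values within 0.01. No column of per-sample values was left out (0).

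Counts were scaled with TMM over 26 libraries for the CPM given, and tested in R 4.3.3 with edgeR 4.0.16 (filterByExpr defaults, quasi-likelihood test, Benjamini-Hochberg adjusted p under 0.05 over all genes tested). STAG2 KO was fitted with experiments 1 and 2 in a joint model and a term for experiment, PRC2 KO over the 12 libraries of experiment 2 and STAG1 KO over experiment 3. The controls of experiments 1 to 3 were fitted with the line as a term, WT clone against parental with a term for experiment. The knockdown was tested with limma 3.58.1 on log2(value + 1) for genes with a mean of at least 10, so fold changes of low genes are understated. Isogenic pairs were compared where a gene's summed count reached 10, on the log2 CPM scale (prior count 2), with exact counting intervals, which cover counting error only. A group at or under 3 counts per library was taken as below measurement, and a gene with few counts is known only to its counting error.

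The members, the lists, the tests and the rule for named genes (the members, listed genes that were called, checks of the labels and the 5 genes most like a member with a mean of at least 5 CPM) were chosen with earlier results of these data known. Alternatives were DESeq2 1.42.0, median-ratio size factors, no filter, other controls, other pseudocounts, recovered reads, replicate blocks and leaving out each library. Lengths and coordinates are those of GENCODE 44. Scripts were tested on simulated data. Some genes of the lists are not reported here.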

Additional observations from a re-analysis of the deposited data

Results flagged for a closer look

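Of 24 sets of 1 member in a group of 5 to 8 libraries, examined for a library far from the rest, 5 had one. Chance gives about 1 in 20 for independent sets, but these share libraries and reads, so the rates are not compared. Among the 5 STAG2 KO libraries, library 24 of experiment 1 held 12.4 CPM of APOBEC3B, against 0.695 to 3.89 CPM in the others. In the same group, clone 5 of experiment 2 stood apart in APOBEC3D with 2.36 CPM (others 0.170 to 0.695), in APOBEC3F with 4.83 CPM (0.167 to 1.27) and in APOBEC3G with 5.78 CPM (0 to 0.695). These genes share stretches of sequence, and the part of shared reads in these values was not tested. Among the 5 WT clone libraries, library a of experiment 1 held 0.234 CPM of APOBEC3A, which is 4 counts, against 0 to 0.0642 CPM.

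APOBEC3C differed in direction between the isogenic pairs, with a log2 ratio without over with STAG2 of -1.90 in SK-N-MC and 0.48 in A4573, and with 1 library per arm the difference was not tested.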

How the results depend on the processing

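Of 383 values of single members under another setting, 339 kept their side of the threshold, and no called value changed sign. These include values that were not called in either setting. For EZH2 and SUZ12 KO, the WT clone as the only control is the same fit as leaving out the parental library. The STAG2 KO comparison, which carries no test, is not among the 383. There the log2 fold change ranged over settings from -2.65 to 1.26 for APOBEC3F and from -2.85 to 1.55 for APOBEC3G. The fall of APOBEC3C in STAG2 KO cells was -2.94 in experiment 1 alone and -1.04 in experiment 2 alone on the log2 scale, and -2.02 to -1.47 with each library left out, the smallest without KO library 5 of experiment 1. The number of members called was sensitive to the setting. In STAG1 KO cells it was 1, 2 with DESeq2 and 0 to 2 with each library left out. In EZH2 KO cells it was 2, 4 with DESeq2, 4 with only EZH2 KO and control libraries, 0 with the WT clone as the only control and 0 to 1 with each library left out. In SUZ12 KO cells it was 1, 3 with DESeq2, 4 with only SUZ12 KO and control libraries, 0 with the WT clone as the only control and 0 to 1 with each library left out. APOBEC3D, APOBEC3F and APOBEC3G entered both fits through KO libraries, so these counts only compare settings. Over all genes, edgeR called 2377 (EZH2 KO) and 3112 (SUZ12 KO), DESeq2 3310 and 3972, the fits with 1 kind of KO 3429 and 4378, and those with the WT clone as the only control 1441 and 2316. In siSTAG2 cells it was 2, 1 without the filter on low values and 0 to 1 with each library left out. For WT clone against parental it was 0, and 0 to 1 with each library left out. Between controls it was 4 to 5 (experiment 1 against 2) and 4 (experiment 3 against 2) with each library left out. The causes were not tested. Where 1 control was left, its spread was taken from the other groups.

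Counts over all genes moved by over 1.5 times in STAG1 KO (757, and 1914 with DESeq2), EZH2 KO (2377, and 1441 with the WT clone as the only control), STAG2 KO (1687, 3663 in experiment 1 alone and 494 in experiment 2 alone), EZH2 KO against SUZ12 KO (1, 20 with DESeq2, 5 without the filter and 0 with clone number as a replicate block) and WT clone against parental (385, 638 with DESeq2, 741 without the filter, 5 without the experiment term, 185 after summing both WT clone libraries of experiment 1, a setting chosen after seeing the data). With each library left out, they were 0 to 1310 in STAG1 KO (0 without either control, 264 and 326 without KO library 5 or 7, 1310 without KO library 1), 1053 to 4048 in STAG2 KO (4048 without KO clone 5 of experiment 2, and 1053 without WT clone 1 of that experiment), 1169 to 1760 in EZH2 KO, 1874 to 3238 in SUZ12 KO (1874 and 1907 without WT clone 1 or 2, 1971 without KO clone 2), 1 to 2 in EZH2 KO against SUZ12 KO and 98 to 953 in WT clone against parental. The other counts stayed within 1.5 times.

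In siSTAG2 against siC, the replicate number as a block gave 2 members called, as without it, and 2881 against 2476 genes. Deviations of same-numbered libraries correlated by 0.0257, 0.0372 and 0.00402, and each library correlated best with its own number except siC library 3. With 3 libraries per group, such values cannot tell whether the numbers pair the libraries. With recovered reads edgeR called 2503 genes, with the same 2 members. Clone numbers of EZH2 and SUZ12 KO name separate clones (-0.130, 0.382 and 0.324), and the block called 0 members, as did the fit without it. No other call of a member changed under a block. Counts were too low for a difference to be detectable in APOBEC3A, APOBEC3H and, in experiment 4, APOBEC3B and APOBEC3G. Why APOBEC3B had so few reads in experiment 4 was not tested.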
